A study of Mus musculus with 4 samples.

Results

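Calcium handling by the sarcoplasmic reticulum was followed through 10 genes, Atp2a2, Pln, Sln, Ryr2, Casq2, Slc8a1, Cacna1c, Hrc, Trdn and Jph2, in hearts of male mice after transverse aortic constriction (TAC), a surgical narrowing of the aorta that overloads the left ventricle with pressure, or after sham surgery. The members were taken as every array probe that the files name by a RefSeq or Ensembl transcript of these genes. All 10 genes had a probe, 7 of them 1 probe and 3 of them 2, so that 13 of the 55681 non-control probes and 10 of the 21654 named genes are described. The 4 groups were sham and TAC hearts collected 2 weeks after surgery, labelled with an age of 10 weeks, and sham and TAC hearts collected 8 weeks after surgery, labelled with an age of 16 weeks. The study's methods give wild-type C57BL/6J mice and an age at surgery that does not match these labels. Each group was 1 array that held RNA pooled from 4 to 6 mice. A difference between groups is thus the ratio of 2 pools, the spread between mice was not measured, and no p-value was computed.

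In a cardiomyocyte, calcium that enters through surface channels opens release channels of the sarcoplasmic reticulum, and the calcium set free from this store starts contraction. Relaxation follows when the store's pump takes calcium back and the surface exchanger carries the rest out of the cell. Small membrane proteins restrain the pump, and proteins inside the store and at its contacts with the cell surface hold the calcium and the release machinery in place. Reduced transcript and protein of the pump is a classic feature of failing hearts.

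The DNA before the start sites is shown first for 4 of the genes, because Ryr2, Pln and Hrc had the lowest changes after TAC at 8 weeks among the members with a sequence given (-0.63, -0.49 and -0.35) and Casq2 was the member higher after TAC at both times. The sequences are 5′ to 3′ on the strand of the gene, from 250 bases before the RefSeq start to 50 bases after it, in build GRCm38.p6, whereas the array's own annotation names mm9. Both strands were searched for the GC box (GGGCGG), the MCAT motif of muscle promoters (CATTCC), the GATA motif (AGATAA), the TATA motif (TATAAA), the MEF2 consensus and the CArG box, and the capitals mark the matches. Windows of 7 of the 10 genes were searched, and those of Atp2a2, Sln and Trdn were not analysed here.
Pln, chr10:53337436-53337735, plus strand: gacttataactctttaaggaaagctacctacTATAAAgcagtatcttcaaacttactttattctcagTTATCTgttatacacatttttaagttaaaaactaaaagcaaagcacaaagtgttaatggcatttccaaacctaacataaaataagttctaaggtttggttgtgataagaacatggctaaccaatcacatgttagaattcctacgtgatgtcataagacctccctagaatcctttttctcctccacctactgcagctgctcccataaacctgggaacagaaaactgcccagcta
Hrc, chr7:45335019-45335318, plus strand: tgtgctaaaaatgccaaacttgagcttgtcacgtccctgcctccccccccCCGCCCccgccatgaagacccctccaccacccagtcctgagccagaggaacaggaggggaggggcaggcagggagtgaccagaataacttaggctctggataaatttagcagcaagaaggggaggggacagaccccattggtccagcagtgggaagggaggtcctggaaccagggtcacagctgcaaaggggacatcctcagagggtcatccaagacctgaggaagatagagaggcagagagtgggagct
Ryr2, chr13:12106896-12107195, minus strand: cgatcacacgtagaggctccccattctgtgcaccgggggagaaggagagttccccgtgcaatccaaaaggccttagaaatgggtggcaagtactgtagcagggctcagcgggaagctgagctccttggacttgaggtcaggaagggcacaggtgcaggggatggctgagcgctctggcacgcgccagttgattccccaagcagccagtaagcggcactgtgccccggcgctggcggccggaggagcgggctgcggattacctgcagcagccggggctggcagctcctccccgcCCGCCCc
Casq2, chr3:102086165-102086464, plus strand: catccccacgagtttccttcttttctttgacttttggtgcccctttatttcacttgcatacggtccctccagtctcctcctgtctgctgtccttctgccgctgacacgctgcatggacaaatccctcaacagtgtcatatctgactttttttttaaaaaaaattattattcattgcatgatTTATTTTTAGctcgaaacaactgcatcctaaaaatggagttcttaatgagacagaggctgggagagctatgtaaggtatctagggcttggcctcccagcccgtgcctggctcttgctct

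The Pln window held a TATA motif 219 bases before the start and a GATA motif on the opposite strand 183 bases before it. Of all 32851 RefSeq promoter windows of this length, 13.6% held the TATA motif and 11.2% the GATA motif. The Hrc window held a GC box on the opposite strand 200 bases before the start, and the Ryr2 window held a GC box on the opposite strand after the start. That motif was found in 35.7% of all windows. The Casq2 window held the MEF2 consensus on the opposite strand 69 bases before the start, and 1.86% of all windows held it. Of the members whose windows are not printed, Cacna1c held 4 GC boxes in 1 of its 3 windows, Jph2 held a GC box in both of its windows and Slc8a1 held a GATA motif. The GC box was thus found for 4 of the 7 genes searched. The MCAT motif, present in 14.7% of all windows, and the CArG box, present in 1.63%, were found for none of the 7. A match is a run of letters and was not tested as a binding site.

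Signals are given as log2 levels relative to the 75th percentile of the non-control probes of an array, and differences are differences of these log2 levels, TAC minus sham unless stated. That percentile lay between 206 and 248 signal units, 54.7% to 58.5% of the probes of an array were well above background by the scanner's own flag, and no probe was saturated. Where a probe had several spots on an array, the log2 ratio of 2 of its spots had an SD of 0.159 over all levels, 0.0942 at levels of 0 or over and 0.289 below -2. This measures spotting and scanning only. The 8 cardiomyocyte markers were well above background on every array, and the 4 hypertrophy markers Myh7, Nppa, Nppb and Acta1 were higher after TAC by 1.03 to 3.09 at 2 weeks and by 1.94 to 3.69 at 8 weeks. Of the 13 member probes, 12 were well above background on all 4 arrays, and the exception was Sln on the TAC array at 8 weeks. A difference was called when it exceeded 1.5-fold and the brighter array was well above background.

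Transcripts of the calcium pump and its main inhibitor were lower after TAC at both times, by more than the sham arrays differed. Atp2a2 encodes SERCA2, the pump that refills the store. Its brighter probe, A_51_P451075, read 8.79 in sham and 8.33 in TAC hearts at 2 weeks, and 8.82 in sham and 8.44 in TAC hearts at 8 weeks. Both TAC arrays lay below both sham arrays. The differences were -0.45 at 2 weeks, or 1.37-fold lower, and -0.37 at 8 weeks, or 1.30-fold lower, while the sham arrays differed by 0.03. The dimmer probe, A_52_P168097, read 5.14 and 4.71 at 2 weeks, and 5.21 and 4.66 at 8 weeks. Its differences of -0.43 and -0.54 had the same sign, and the probes were 0.02 apart at 2 weeks and 0.17 apart at 8 weeks. In bulk tissue, fewer cardiomyocytes and less of an RNA per cardiomyocyte cannot be told apart.

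Pln encodes phospholamban, which restrains SERCA2 until it is phosphorylated. It read 6.25 in sham and 5.83 in TAC hearts at 2 weeks, and 6.39 in sham and 5.90 in TAC hearts at 8 weeks. Again both TAC arrays were below both sham arrays. The differences were -0.42, or 1.34-fold lower, and -0.49, or 1.40-fold lower, against 0.13 between the sham arrays. Relative to Atp2a2, the change of Pln differed by 0.03 at 2 weeks and by -0.11 at 8 weeks. The transcripts of the pump and its inhibitor thus differed between TAC and sham by similar amounts at 2 weeks, at a scale below the 1.5-fold call for either gene.

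**Figure D1:**
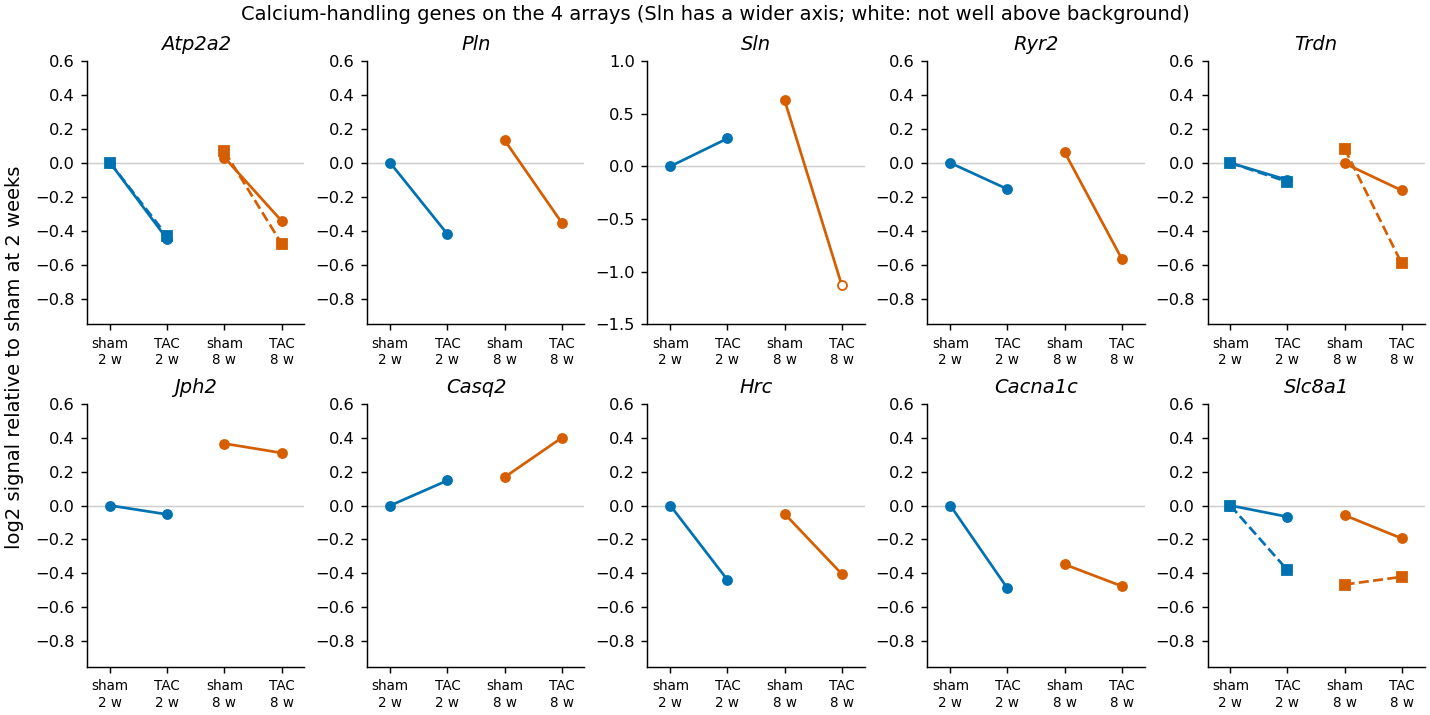
Log2 signal of each of the 10 genes on the 4 arrays, set to 0 at the sham array of 2 weeks (1 point per array, lines join sham and TAC of the same time, blue at 2 weeks and orange at 8 weeks; squares with dashed lines are a gene's dimmer probe; a white point was not well above background). Atp2a2, Pln and Hrc step down from sham to TAC at both times, Ryr2 mainly at 8 weeks, Casq2 steps up at both, and Sln is high on the sham array of 8 weeks and below background on the TAC array of 8 weeks.

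Sln, which encodes sarcolipin, an inhibitor of the pump found chiefly in atrial muscle of the mouse heart, was the dimmest member and the one with the widest range. It read -3.69 in sham and -3.43 in TAC hearts at 2 weeks, and -3.06 in sham hearts at 8 weeks, and was not well above background in TAC hearts at 8 weeks. At 2 weeks it was higher after TAC by 0.26, which is within the SD of 0.289 between spots at such levels. At 8 weeks it was at least 2.55-fold lower after TAC, counted against the lowest level well above background on that array, and its measured difference was -1.76. The sham array of 8 weeks was itself 0.63 above that of 2 weeks, a 1.55-fold difference without TAC. With normexp background correction the difference at 8 weeks was -0.55, the same direction but under 1.5-fold.

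Of the 6 atrial markers, 3 were highest on the sham array of 8 weeks, as Sln was. Myl7, the atrial myosin light chain, was not well above background on the sham array of 2 weeks or the TAC array of 8 weeks, read -3.68 on the TAC array of 2 weeks and -2.55 on the sham array of 8 weeks, and was at least 3.64-fold lower after TAC at 8 weeks. Kcnj3, an atrial potassium channel subunit, read -0.79, -1.57, 0.24 and -1.48 on the sham and TAC arrays of 2 weeks and then those of 8 weeks. Its slightly dimmer probe, A_55_P2159685, read -0.54, -1.30, -0.49 and -1.55. The sham arrays thus differed by 1.04 with the brighter probe but by 0.05 with the dimmer one. Myl4, the other atrial light chain, read 1.63, 1.61, 1.94 and 1.43 in that order. At 2 weeks Kcnj3 differed by -0.78, where Sln differed by 0.26. Bmp10 passed the background flag only on the TAC array of 2 weeks, Nr2f2 differed by 0.25 and 0.03 at the 2 times, and Dkk3 was higher after TAC by 1.63 and 1.17. The summed level of the 6 atrial markers, as a multiple of the 75th percentile, was 5.27 and 5.95 in sham and TAC hearts at 2 weeks and 7.01 and 5.87 at 8 weeks, with 4, 6, 5 and 4 of the 6 well above background. The part of atrial tissue in the Sln difference was not tested.

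**Figure D2:**
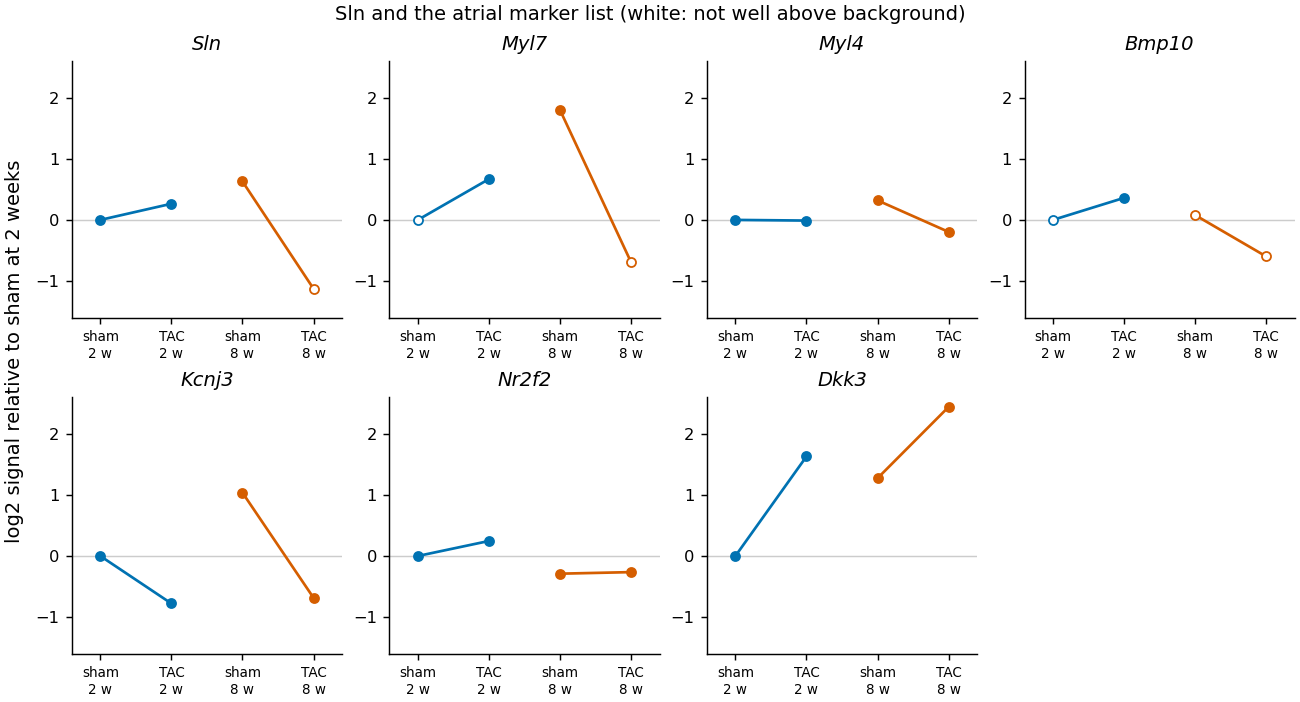
Log2 signal of Sln and of the 6 atrial markers on the 4 arrays, set to 0 at the sham array of 2 weeks (1 point per array, blue at 2 weeks and orange at 8 weeks; a white point was not well above background). Sln, Myl7, Myl4 and Kcnj3, the last drawn by its brighter probe only, are highest on the sham array of 8 weeks. Dkk3 is higher on both TAC arrays than on their sham arrays.

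Among the genes of the release unit, Ryr2 was lower after TAC mainly at 8 weeks. Ryr2 encodes the ryanodine receptor, the channel through which the store releases calcium. It read 4.17 in sham and 4.01 in TAC hearts at 2 weeks, and 4.23 in sham and 3.60 in TAC hearts at 8 weeks. The TAC array of 8 weeks stood apart from the other 3, which lay between 4.01 and 4.23. The difference was -0.15 at 2 weeks and -0.63 at 8 weeks, or 1.55-fold lower, just past the 1.5-fold call. It ranged from -0.66 to -0.46 over the processing alternatives and was not called with the array median, without normalization or with normexp. The change at 8 weeks was 0.47 below that at 2 weeks, a difference for which no test was possible.

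Trdn encodes triadin, which ties the release channel to calsequestrin. Its brighter probe, A_55_P2401646, read 4.31 and 4.21 in sham and TAC hearts at 2 weeks, and 4.30 and 4.14 at 8 weeks. Its dimmer probe, A_55_P1966778, read -2.10 and -2.21 at 2 weeks, and -2.02 and -2.70 at 8 weeks. Both probes gave nearly the same difference at 2 weeks, -0.10 and -0.11, but they parted at 8 weeks, where the brighter probe gave -0.16 and the dimmer probe -0.68, or 1.60-fold lower. The difference at 8 weeks therefore depends on the probe, and that of the brighter probe was 0.0084 without normalization between arrays.

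Jph2 encodes junctophilin 2, which holds the store's membrane next to the surface membrane. It read 1.57 in sham and 1.52 in TAC hearts at 2 weeks, and 1.94 in sham and 1.88 in TAC hearts at 8 weeks. Both arrays of 8 weeks lay above both of 2 weeks. Time after surgery, age and the pool of mice cannot be told apart in this difference. TAC and sham differed by -0.05 and -0.06, values within the spread between spots that turned positive at 8 weeks with the array median or without normalization, whereas the times differed by 0.37 between the sham arrays and by 0.36 between the TAC arrays.

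Transcripts of proteins that hold calcium inside the store parted in direction. Casq2 encodes cardiac calsequestrin, the main calcium buffer of the store. It read 5.90 in sham and 6.05 in TAC hearts at 2 weeks, and 6.07 in sham and 6.30 in TAC hearts at 8 weeks. It was the only member higher after TAC at both times, by 0.15 and 0.23, and both values kept their sign under all alternatives run. The sham arrays differed by 0.17, so that the difference of 2 weeks was no larger than that between the times without TAC.

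Hrc encodes the histidine-rich calcium-binding protein, which binds calcium in the store and contacts both the pump and triadin. It read 8.80 in sham and 8.36 in TAC hearts at 2 weeks, and 8.75 in sham and 8.39 in TAC hearts at 8 weeks. Both TAC arrays were below both sham arrays, with differences of -0.44, or 1.36-fold lower, and -0.35, or 1.28-fold lower, and the sham arrays differed by -0.05. Beside the values of Atp2a2, -0.45 and -0.37, those of Hrc differed by 0.01 and 0.02 at the 2 times.

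At the cell surface the differences were smaller or depended on the time. Cacna1c encodes the pore of the L-type calcium channel, the route of calcium entry that triggers release. It read -1.43 in sham and -1.92 in TAC hearts at 2 weeks, and -1.78 in sham and -1.91 in TAC hearts at 8 weeks. The sham array of 2 weeks stood above the other 3. The difference of -0.49 at 2 weeks, which was -0.22 with normexp, thus stood beside a difference of -0.35 between the sham arrays, and at 8 weeks the difference was -0.13 and became 0.04 without normalization.

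Slc8a1 encodes the sodium-calcium exchanger NCX1, which removes calcium from the cell. Its brighter probe, A_55_P2080758, read 1.15 in sham and 1.08 in TAC hearts at 2 weeks, and 1.09 and 0.96 at 8 weeks. The differences of -0.07 and -0.14 were small against the call, and that of 8 weeks became 0.03 without normalization. Its dimmer probe, A_55_P2292435, which the files name by another transcript of the gene, read -0.78 and -1.16 at 2 weeks, and -1.25 and -1.20 at 8 weeks. As for Cacna1c, the sham array of 2 weeks was the high one, and the differences were -0.38 and 0.05.

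**Figure D3:**
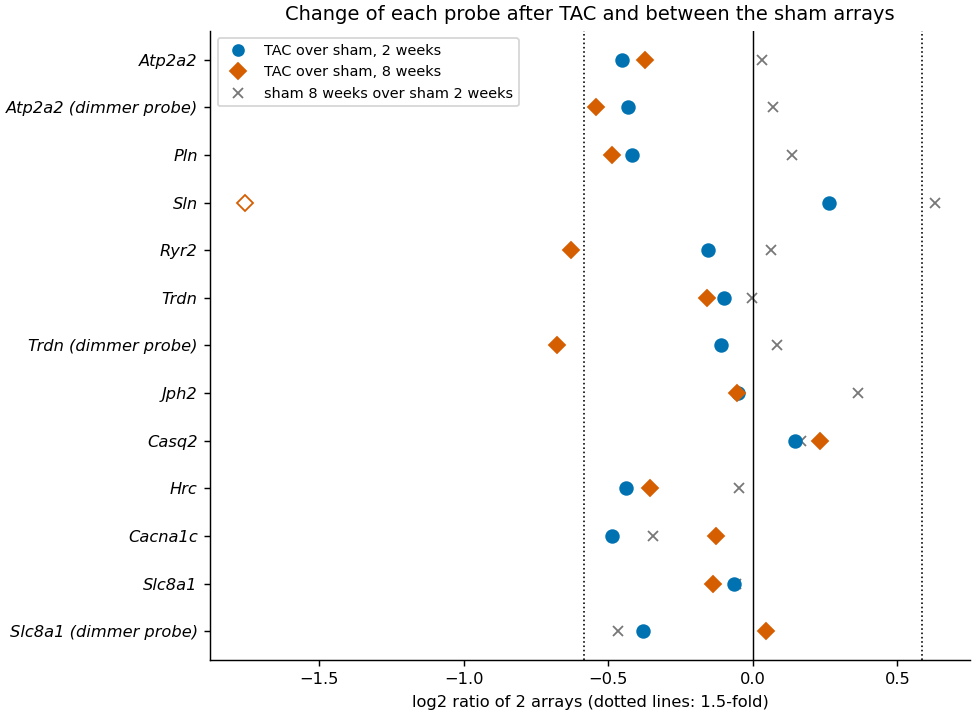
Log2 ratio of each of the 13 member probes for TAC over sham at 2 weeks (blue circles), TAC over sham at 8 weeks (orange diamonds, white where the TAC array was not well above background) and sham at 8 weeks over sham at 2 weeks (grey crosses); each symbol is the ratio of 2 arrays and the dotted lines mark 1.5-fold. For Atp2a2, Pln and Hrc both TAC symbols lie to the left of the cross, while for Jph2 and for the dimmer Slc8a1 probe the sham difference is as large as or larger than the TAC differences.

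As a group, the members leaned to lower signals after TAC. At 2 weeks 8 of the 10 genes were below 0, with a median of -0.13, a lowest value of -0.49 (Cacna1c) and a highest of 0.26 (Sln). Of the 29895 probes well above background on both arrays, 53.4% were below 0, with a median of -0.02. At 8 weeks 9 of the 10 genes were below 0, with a median of -0.26. The 30411 probes well above background on both of those arrays had a median of -0.04, and 56.4% were below 0. Bright probes leaned lower as well. Of the 3581 probes with a mean level over 4, 67.2% were below 0 at 2 weeks and 58.1% at 8 weeks. Atp2a2, Pln, Hrc, Casq2, Trdn and Ryr2 were of that brightness. Without normalization between arrays, which moved the median of all probes by 0.17 at 8 weeks, 5 of the 10 genes were below 0 (Atp2a2, Pln, Sln, Ryr2 and Hrc) and their median was -0.09. With the array median 8 of the 10 were below 0, and with quantile normalization 9.

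Few member differences were large enough to be called. At 2 weeks none of the 10 genes was called in either direction, where 7.67% of all tested probes were called higher and 4.39% lower. At 8 weeks Sln and Ryr2 were called lower, 2 of the 10 genes against 7.59% of all probes, and none was called higher against 6.92%. The split of all calls at 8 weeks depends on the scaling, since lower calls made up 52.3% of them with the 75th percentile, 41.2% with the array median and 31.8% without normalization. Between the sham arrays, 8 weeks over 2 weeks, Sln was called higher and no member lower, against 5.24% and 3.47% of all probes. Between the TAC arrays Sln was called lower, at least 1.98-fold, and no member higher, against 7.45% and 4.6% of all probes.

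Atp2a2, Hrc and Pln were under the call at both times and lay in the lower part of all probes. At 2 weeks 5.60% of the probes well above background on both arrays had a change at or below that of Atp2a2, 5.98% at or below that of Hrc and 6.56% at or below that of Pln. At 8 weeks these shares were 12.0%, 13.0% and 7.35%, and 4.06% of the probes were at or below Ryr2, which was called. Other bright members lay elsewhere, since 33.4% and 31.3% of the probes were at or below Trdn at the 2 times and 75.3% and 83.2% at or below Casq2. The 3581 probes with a mean level over 4 had a median change of -0.05 and an SD of 0.225 at 2 weeks, and a median of -0.03 and an SD of 0.269 at 8 weeks. The SD of the same probes between the sham arrays was 0.122.

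**Figure D4:**
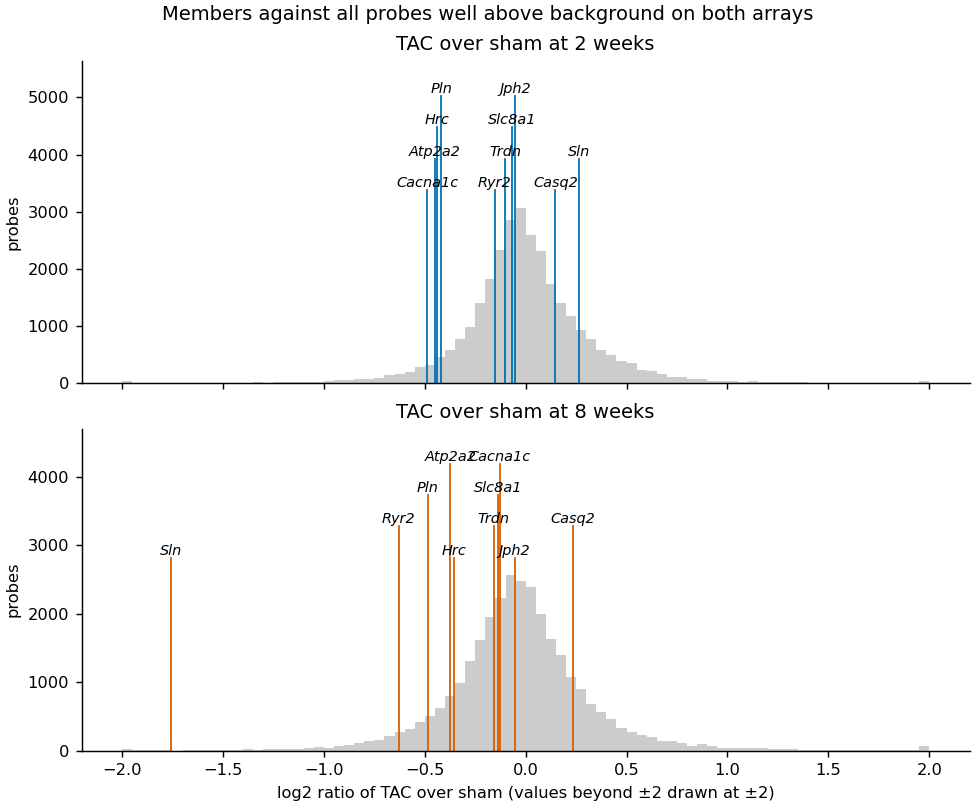
Histogram of the log2 ratio of TAC over sham for all probes well above background on both arrays, at 2 weeks (upper panel, 29895 probes) and 8 weeks (lower panel, 30411 probes), with vertical lines at the values of the 10 genes, each by its brighter probe. Cacna1c, Atp2a2, Hrc and Pln stand together in the left flank at 2 weeks, and at 8 weeks Ryr2 lies to the left of Pln and Sln, which was not well above background on the TAC array, lies farthest out.

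The median change of the 8 listed cardiomyocyte markers was smaller than the changes of Atp2a2, Pln and Hrc. The 8 cardiomyocyte markers (Myh6, Actc1, Tnnt2, Tnni3, Myl2, Myl3, Mb and Ckmt2) had a median change of -0.09 at 2 weeks, from -0.31 to 0.06, and of -0.15 at 8 weeks, from -0.46 to -0.11. The median of 8 weeks was 0.02 without normalization. With each marker read by its brightest probe, Atp2a2, Pln, Hrc and Cacna1c were each lower than all 8 markers at 2 weeks. At 8 weeks Pln, Ryr2 and Sln were each lower than all 8, and Atp2a2 and Hrc were lower than 7 of the 8, the exception being Tnni3 at -0.46. Casq2 was above all 8 at both times. The ranking depends on the probe, since Myh6 and Myl2 each had a dimmer probe well above background on every array. These gave -0.36 and -0.40 at 2 weeks, and -0.54 and -0.46 at 8 weeks. At 8 weeks both dimmer probes were lower than Atp2a2 and Hrc, and that of Myh6 was also lower than Pln. The 7 fibroblast markers were higher after TAC, by a median of 0.90 and 0.94, and their summed level was 207 and 287 in sham and TAC hearts at 2 weeks and 232 and 338 at 8 weeks, with all 7 well above background on every array. The part of a changed cell composition in the member differences was not tested.

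The wider calcium machinery showed no common direction. A list of 54 further genes (pump paralogs and regulators, release channels and their partners, store proteins, junction proteins, surface channels, extrusion and store-operated entry) was examined, of which 52 had a probe. Their median change was -0.00 at 2 weeks, with 26 of 52 below 0, and 0.07 at 8 weeks, with 25 of 52 below 0, or 18 of 52 without normalization. The skeletal-muscle pump Atp2a1 had levels of 3.64 and 3.15 at 2 weeks and 3.70 and 3.29 at 8 weeks and differences of -0.49 and -0.41. These lie near those of Atp2a2, its paralog, and cross-hybridization between them was not tested. The micropeptide Mrln, a pump inhibitor of skeletal muscle, differed by -0.43 and -0.28. Of the 8 listed partners of the release channel, 3 were below 0 at 2 weeks and 1 at 8 weeks, with medians of 0.10 and 0.18. They ranged from Akap6, an anchoring protein, at -0.17 to Fkbp1b, a channel-stabilizing immunophilin, at 0.41 at 2 weeks.

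At 2 weeks 2 of the 52 genes were called higher and 4 lower, against 7.67% and 4.39% of all tested probes. Casq1, the skeletal-muscle calsequestrin, read -1.84 in sham and -0.60 in TAC hearts at 2 weeks, a difference of 1.24 or 2.36-fold, and -1.51 and -1.15 at 8 weeks, a difference of 0.36. Cacnb1, a channel beta subunit, was higher by 0.80 at 2 weeks and 0.72 at 8 weeks, and was called at both times. The lower calls at 2 weeks were Cacna1s, the pore of the skeletal-muscle L-type channel, at -0.86, Akap7, an anchor of protein kinase A near phospholamban, at -0.78, Cacnb2, the main cardiac beta subunit, at -0.66, and Stim2, a sensor of store calcium, at -0.92. None of the 4 was called at 8 weeks, where they stood at -0.20, -0.20, -0.34 and 0.32. For Stim2 and Akap7 the sham array of 2 weeks was the high one, and the sham arrays differed by -0.91 and -0.32. The dimmer Akap7 probes gave -0.47 and -0.17 at 2 weeks, neither past 1.5-fold. The dimmer Cacna1s probe gave -0.94. Those of Cacnb2 gave -0.74 and, where the sham array was not well above background, 0.80.

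At 8 weeks Cacnb1, Bin1 and Ryr1 were called higher and none of the 52 was called lower. Of all tested probes 6.92% were called higher and 7.59% lower. Bin1, which shapes the T-tubules where surface channels face the store, read 1.19 and 1.53 in sham and TAC hearts at 2 weeks and 1.23 and 1.96 at 8 weeks, differences of 0.35 and 0.73. Ryr1, the skeletal-muscle release channel, passed the background flag only on the TAC array of 8 weeks, at -2.86, and was at least 2.55-fold higher there than in sham. Beside these genes of skeletal muscle, 4 of 8 skeletal-muscle markers, Tnni2, Tnnt3, Tnnc2 and Pvalb, were well above background on every array. Myh1, Myh4, Mylpf and Actn3 were not well above background on any. The summed level of the 8 markers in sham and TAC hearts was 4.52 and 4.23 at 2 weeks and 4.12 and 2.98 at 8 weeks.

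**Figure D5:**
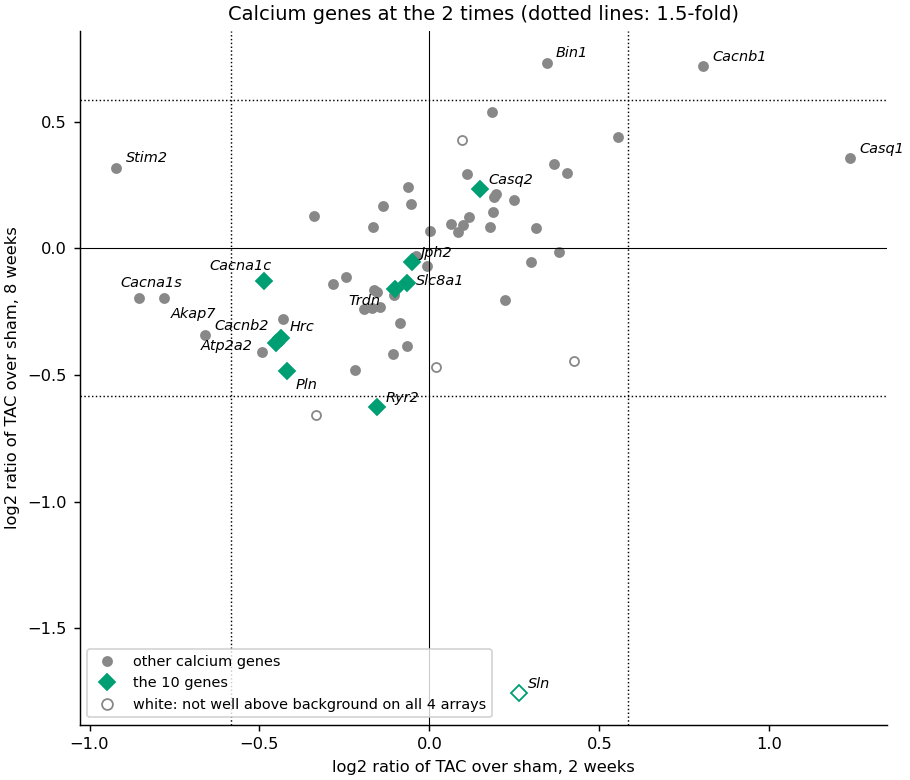
Log2 ratio of TAC over sham at 2 weeks (x axis) and 8 weeks (y axis) for the 10 genes (green diamonds) and 51 of the 52 other calcium genes (grey circles; Ryr1 lies off the scale), 1 probe per gene, white for probes that some array did not measure well above background, with dotted lines at 1.5-fold. Atp2a2, Pln and Hrc sit together in the lower left quadrant. The other calcium genes Atp2a1 and Mrln, drawn without labels, lie close to them, and Cacnb2 lies farther left. Casq2 lies in the upper right, and Sln lies far below the rest at -1.76.

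The genes most like Atp2a2 over the 4 arrays were sought among 18805 probes that carry a gene symbol and were well above background on all 4, by the root mean square difference of log2 levels after each probe's mean was removed. The 5 closest were Pdgfa at 0.00525, Smim20 at 0.00887, Hpf1 at 0.0154, Acad12 at 0.0175 and Hadhb at 0.0190. Their differences after TAC lay between -0.41 and -0.47 at 2 weeks and between -0.34 and -0.39 at 8 weeks. With 4 points per gene and this many probes such closeness is a description only. Sln itself missed the background filter on the TAC array of 8 weeks, so probes that fell to background there with it were left out of the search. Its range over the arrays was 1.76, against 0.48 for Atp2a2, and distances for the 2 genes are not comparable. The closest to Sln were Tmem35a at 0.217, a probe of Tpm1 at 0.232, Gm10778 at 0.247, Zbed4 at 0.274 and Ifna11 at 0.275. All 5 were lowest on the TAC array of 8 weeks, which the search for likeness selects, with differences from sham between -0.99 and -1.26.

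Between the TAC arrays, Sln differed most from 2 to 8 weeks, by -1.39 as measured, or at least 1.98-fold lower. Atp2a2 differed by 0.11, Pln by 0.07, Hrc by 0.04, Trdn by -0.06 and Cacna1c by 0.01, TAC at 8 weeks minus TAC at 2 weeks. Casq2 was higher at the later time by 0.25 and Jph2 by 0.36. Ryr2 was lower by 0.41 on the log2 scale, or 1.33-fold, and Slc8a1 differed by -0.13. Against sham, the lower Atp2a2, Pln and Hrc signals were thus present at both times. Their sizes at 8 weeks depend on the scaling, since without normalization they were -0.21 for Atp2a2, -0.32 for Pln and -0.19 for Hrc.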

How the data were processed

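RNA of 4 groups was hybridized to 4 single-colour Agilent SurePrint G3 Mouse GE 8x60K arrays, 1 pool of 4 to 6 mice and 1 array per group, on 1 slide in 1 scan, so that slide and scan could not be examined as batches. The authors deposited the scanner output, whose processed signal is a linear intensity per spot after background subtraction and spatial detrending, not normalized between arrays (Feature Extraction 10.7.3.1 per the file headers, 9.1 in the submitters' processing notes). The series-wide table that was also deposited repeats this intensity, multiplied by a constant per array, with column medians of 101, 106, 104 and 97.2 for sham and TAC at 2 weeks and sham and TAC at 8 weeks. The authors name GeneSpring GX11, and the normalization and filters they set in it are not given in the sources used here.

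From these files the log2 of the processed signal was averaged over the spots of a probe, outlier spots left out, and the 75th percentile of an array's non-control probes was then taken off. Transcript names were matched to symbols through RefSeq (GRCm38.p6) and GENCODE tables, which named 29352 of the 55681 probes. A gene was represented by its brightest probe on average. A difference was called above 1.5-fold with the brighter array well above background. It is a lower bound where the dimmer array was not, set against the higher of that probe's level and the lowest level well above background. Such a bound holds for this processing only and makes no allowance for the spread between spots. With 1 array per group there was no test and no replicate error. The number of arrays limits the precision. Named were all members, other calcium genes past 1.5-fold at either time, the 5 genes most like Atp2a2 and most like the member of widest range, and markers that moved with a member. Atp2a1, Mrln, Fkbp1b and Akap6 were named after their values were seen. The members, gene lists and thresholds were chosen with earlier results of these data known. The alternatives were another normalization (array median, quantile, none, percentile over spots), normexp background correction with an offset of 50 (limma 3.58.1, R 4.3.3), the series table, outlier spots kept, the mean of a gene's probes, a stricter filter on dim probes, and fold thresholds of 2 and 3. The counting was tested on simulated arrays in which some probes were changed 2-fold, with noise between spots only. That setting does not cover differences near 1.5-fold or signals that fall to background. Computations used Python 3.11.15, pandas 2.3.3, numpy 2.4.6 and scipy 1.17.1.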

Additional observations from a re-analysis of the deposited data

Results flagged for a closer look

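Sln had measured differences of opposite sign at the 2 times, TAC minus sham on the log2 scale. That of 2 weeks, 0.26, was within the SD of 0.289 between spots at such levels. That of 8 weeks, -1.76, was against an array where Sln was not well above background. It is therefore given as at least 2.55-fold lower, a bound that depends on the processing. With normexp background correction the difference at 8 weeks was -0.55. The dimmer Slc8a1 probe, A_55_P2292435, also changed direction, from -0.38 at 2 weeks to 0.0451 at 8 weeks. Of the other calcium genes that were called, Stim2 went from -0.92 at 2 weeks to 0.32 at 8 weeks. With 1 array per group none of these differences between times was tested.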

How the results depend on the processing

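Of 11 alternatives, the fold thresholds of 2 and 3 recompute counts only. Under the others the called changes, those of Ryr2 and Sln at 8 weeks, kept their sign wherever a value could be had. Of 179 recomputed member changes 13 moved by more than the SD of 0.159 between spots, 10 of them at 8 weeks without normalization between arrays, which raised all changes of that time by 0.17. There the members' median was -0.0891, that of the other calcium genes 0.23, 1 member was called lower and 5 other calcium genes higher. The remaining 3 were Cacna1c at 2 weeks (-0.22) and Sln at 8 weeks (-0.55), both with normexp, and Trdn at 8 weeks with the mean of its probes (-0.42). The count of 2 members lower at 8 weeks became 1 with the array median, with both arrays required well above background (where Sln has no value at 8 weeks) or at a fold of 2 or 3, and 0 with normexp. The count of 3 other calcium genes higher at 8 weeks became 1 with normexp and at a fold of 2 or 3. At a fold of 3 these are Sln and Ryr1 by their measured levels, although the lower bound of each in the main processing is 2.55-fold. Beyond the alternatives' own construction, the cause was not tested. The 8-week changes of Slc8a1, Cacna1c and Trdn turned positive without normalization, and that of Jph2 also with the array median. Signal close to background limits the Sln, Ryr1 and Myl7 values. No paired analysis was possible because each group has 1 array.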
